A study of Sus scrofa with 4 samples.

Results

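Transfer RNA (tRNA) genes were described in pig subcutaneous preadipocytes during adipogenic differentiation. They were chosen as all features annotated with the biotype tRNA, which gave 339 of the 22944 features with an FPKM value (fragments on a feature divided by its length and by the size of the library) and of 31567 features in all. The 339 genes lay on 22 nuclear sequences, the chromosomes and unplaced scaffolds of Sscrofa11.1. None of them lay on the mitochondrial sequence. The mitochondrial tRNA genes were found by position instead. Of the 22 mitochondrial tRNA genes in the RefSeq annotation of the same assembly, 17 had a feature with exactly their start and end, and all 17 carried the biotype protein_coding, which goes against that annotation. The other 5 were not analysed here. The 17 were described apart from the 339.

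The cells were precursors of fat cells from the subcutaneous fat of male Chinese Erhualian pigs, 5 days old. After confluence (D0), they received the DMI cocktail (dexamethasone, 3-isobutyl-1-methylxanthine and insulin) in growth medium with serum for 2 days (D2), then insulin alone in the same medium until D4, and after that growth medium until D8. RNA of 3 piglets was pooled in equal amounts at each stage, so that each of the 4 stages is 1 library. Stage and library cannot be told apart, no spread between piglets was measured, and no test compares stages. Ratios between 2 libraries are given with exact 95% conditional binomial intervals, which cover counting error only.

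A tRNA carries 1 amino acid to the ribosome and reads the codon with its anticodon. Nuclear tRNA genes are transcribed by RNA polymerase III as precursors, which are trimmed at both ends, spliced where they hold an intron, modified at many bases and exported before a synthetase loads the amino acid. Mitochondrial tRNAs are cut out of long transcripts of both mitochondrial strands that also hold the mRNAs and rRNAs. A symbol such as TRNAI-AAU names the amino acid (I, isoleucine) and the anticodon (AAU), and many gene copies on several chromosomes share 1 symbol. Sequencing of fragmented, rRNA-depleted RNA is not made for RNAs this short. The values below therefore describe fragments counted on tRNA genes, and precursor and mature tRNA cannot be told apart. It was not stated how fragments that fit several copies of a tRNA were counted, so reads may be split among near-identical copies, and a single copy's value is uncertain for that reason.

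The 339 nuclear tRNA genes took 50340 of 75387428 fragments in the D0 library, 26020 of 54987801 in D2, 31108 of 74358922 in D4 and 23087 of 54128151 in D8. These are shares of 0.0668%, 0.0473%, 0.0418% and 0.0427%. The share was highest at D0, and the 3 later libraries lay within a narrow range below it. In bulk RNA, fewer cells that express a gene and less RNA of it per cell cannot be told apart. A library holding 1 read on a gene of 73 bases, the median length, has an FPKM of 0.182 (D0), 0.249 (D2), 0.184 (D4) or 0.253 (D8) for that gene. A count of 0 allows up to 3 reads, an FPKM of 0.545 to 0.759. The number of genes with no read was 47 (D0), 72 (D2), 64 (D4) and 61 (D8), and each of the 339 had a read in at least 1 library. The RefSeq annotation holds 510 nuclear tRNA genes, and those beyond the 339 had no feature here. Whether genes without any read were left out was not stated, so sizes of groups and families below count only the 339. Reliably expressed, which here means an FPKM of 1 or more in 3 libraries or all 4, were 195 genes. The other 144 all had a mean under 20 reads a library. Their own ratios are uncertain and enter only the depth classes, the extremes and the unfiltered counts below.

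Adipocyte markers as a sum followed the labelled course up to D4. The summed FPKM of the 20 adipocyte markers was 183, 809, 3019 and 3055 at D0, D2, D4 and D8, and none of them was at 0. FABP4 (77.5, 201, 853 and 1557) and SCD (31.5, 249, 1053 and 772) held much of this sum. Members did not move alike. From D4 to D8, FABP4 and CIDEC (5.01 to 54.6) rose, while PLIN1 (215 to 90.3), CEBPA (162 to 37.1) and PPARG (51.9 to 25.8) fell. AGPAT2 (14.4, 7.39, 6.60 and 15.2) and LEP, which stayed under 1, were lower at D2 and D4 than at D0. The 12 preadipocyte and fibroblast markers listed summed to between 6067 and 6680. Summed levels of the other marker lists were 507 to 5772 for smooth muscle and pericyte (7 of 7 markers listed, none at 0), 45.2 to 277 for epithelium (4 of 5, none at 0; KRT5 alone had 44.4 to 275 and the other 3 were under 1), 3.81 to 9.04 for leukocytes (7 of 8, 1 at 0 in each library), 1.20 to 2.81 for endothelium (7 of 7, 1 to 3 at 0) and 0.104 to 0.507 for skeletal muscle (3 of 6, 1 to 2 at 0). The smooth muscle sum was 5772 (D0), 627 (D2), 507 (D4) and 4776 (D8). The part of these cell states in the tRNA values was not tested. The 18S rRNA gene RN18S, a target of the rRNA depletion, had an FPKM of 424, 243, 211 and 287 in the same order. Its ratio of D4 to D0 was 0.498, beside 0.627 for the summed nuclear tRNA reads. The part of residual rRNA in the tRNA values was not tested.

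Nuclear tRNA genes were lower at D2 than at D0. Of the 195 reliably expressed genes, 66 were at least 2-fold lower and 14 at least 2-fold higher on log2(FPKM + 0.01), and the median log2 ratio was -0.44. Over all 9929 reliably expressed features, 10.7% were lower, 7.06% higher and 17.8% either, with a median of -0.03. The counting interval was also on one side of 0 for 64 of the 66 and for 8 of the 14. Summed over all 339 genes, the reads scaled by library total gave a log2 ratio of -0.50 (95% counting interval -0.52 to -0.48).

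From D2 to D4, when insulin alone replaced the cocktail, 32 of the 195 genes were at least 2-fold lower and 21 higher, beside 1.49% and 4.53% of all features (6.02% either). The median was -0.14, beside 0.09 for all features. The summed log2 ratio was -0.18 (-0.20 to -0.15). From D4 to D8, 24 genes were lower and 23 higher, beside 10.4% and 4.75% of all features (15.2% either), and the median was 0.02, beside -0.21. The summed log2 ratio was 0.03 (0.00330 to 0.0525). The split was close to even at this step, unlike that from D0 to D2.

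The comparisons of D4 and D8 with D0 share the D0 library with the first one and are given side by side with it. At D4, 63 of 195 genes were at least 2-fold lower than at D0 and 14 higher, with a median of -0.63, beside 9.57% and 10.7% of all features (20.2% either) and a median of 0.05. At D8, 71 were lower and 9 higher, with a median of -0.63, beside 4.82% and 3.87% of all features (8.69% either) and a median of -0.18. The summed log2 ratios were -0.67 (-0.70 to -0.65) at D4 and -0.65 (-0.67 to -0.62) at D8. In all, 107 of the 195 genes (54.9%) had their highest level at D0, beside 36.4% of all features. The highest level of 45, 25 and 18 genes was in the D2, D4 and D8 library (23.1%, 12.8% and 9.23%), beside 17.3%, 36.4% and 9.84% of all features.

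**Figure D1:**
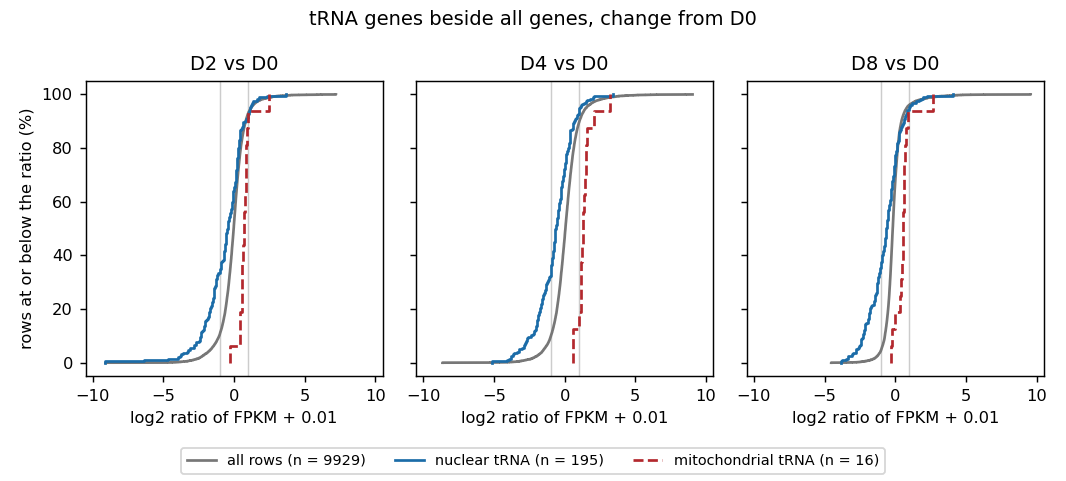
Share of features (y axis, %) at or below each log2 ratio of FPKM + 0.01 (x axis) for D2, D4 and D8 against D0, for all 9929 reliably expressed features, the 195 nuclear and the 16 mitochondrial tRNA genes; vertical lines mark 2-fold. The nuclear tRNA curve lies to the left of that of all features in its lower part at every stage (medians -0.44, -0.63 and -0.63), and the mitochondrial curve lies to the right (medians 0.72, 1.27 and 0.55).

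Depth bears on these counts. The 52 genes with a mean of at least 100 reads a library held 82.8% of the tRNA reads at D0. Among them, 14, 15 and 14 were at least 2-fold lower than D0 at D2, D4 and D8, and 0, 1 and 0 were higher. Over all reliably expressed features, 10.7%, 9.57% and 4.82% were lower and 7.06%, 10.7% and 3.87% higher. Among the 79 genes with 20 to under 100 reads, 34, 34 and 36 were lower and 3, 2 and 0 higher. The 96 genes with 5 to under 20 reads had 36, 30 and 41 lower and 20, 20 and 18 higher, with no filter on FPKM. Of the genes at least 2-fold higher than at D0, at most 3 per stage thus had a mean of 20 reads or more. Short features of another kind also moved often. Of 52 reliably expressed miRNA genes, 34.6% were at least 2-fold apart at D2 and at D4 and 36.5% at D8. Over all features it was 17.8%, 20.2% and 8.69%. The miRNA medians were 0.05, 0.11 and 0.11.

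A few genes held most of the signal. The 15 of the highest mean FPKM took 60.3%, 63.7%, 63.4% and 63.3% of the nuclear tRNA reads at the 4 stages. The first was TRNAI-AAU at chr7:21309411-21309484 on the plus strand, an isoleucine tRNA outside any other feature. Its FPKM was 1168 (D0), 397 (D2), 361 (D4) and 544 (D8), from 6514, 1614, 1985 and 2180 reads. It was 2.94-fold, 3.24-fold and 2.15-fold lower than D0, and the lowest library was D4. It alone took 12.9% of the tRNA reads at D0 and 6.20% at D2. A serine tRNA gene, TRNAS-GCU at chr7:22337106-22337187 on the minus strand, was also highest at D0. Its FPKM was 785, 417, 319 and 349, which is 1.88-fold, 2.46-fold and 2.25-fold lower than D0.

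Next to these stood genes of the same order of abundance that hardly differed between libraries. The second in rank, TRNAL-UAG at chr7:78316847-78316928 on the minus strand, reads a leucine codon. Its FPKM was 571, 614, 550.1 and 556 at D0, D2, D4 and D8, and the D4 and D8 intervals of the log2 ratio to D0 included 0 (-0.12 to 0.01 and -0.11 to 0.04). The third, the alanine tRNA TRNAA-AGC at chr2:4523905-4523977 on the plus strand, had 533, 598, 547 and 487. Others were somewhat higher in the middle of the course. The arginine tRNA TRNAR-CCU at chr3:39064457-39064529 had an FPKM of 269, 425, 350.2 and 284, and the aspartate tRNA TRNAD-GUC at chr14:28244243-28244314 had 212, 283, 274 and 209. The tyrosine tRNA TRNAY-GUA at chr3:112066277-112066365, which lies inside AGBL5 on the same strand, had 189.9, 251, 236 and 177. AGBL5, a carboxypeptidase gene, had an FPKM of 0.236 to 0.387. The proline tRNA TRNAP-UGG at chr3:39056996-39057067 had 166, 216, 188 and 199.9. These were lowest at D0 or D8 and highest at D2, while the 2 large genes on chr7 described before them were highest at D0.

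Copies of 1 anticodon differed from each other. A second TRNAA-AGC gene, on scaffold NW_018084804.1 at 237130-237201, had an FPKM of 310.2, 61.4, 24.8 and 45.9. It was 5.05-fold, 12.5-fold and 6.75-fold lower than D0, from 1684 reads at D0 and 133 at D4, whereas the copy on chr2 was nearly level. For TRNAR-CCU, the copy at chr3:39028215-39028287 had 178, 94.2, 61.0 and 123, lowest at D4, where the copy at chr3:39064457-39064529 was above its D0 level. The TRNAS-GCU copy at chr7:20917831-20917912 had 202, 186, 168 and 196, nearly level beside the other chr7 copy. TRNAI-AAU at chr7:21538731-21538804 had 172, 91.9, 79.8 and 100.1, in the same order of stages as the first in rank. Alanine tRNAs with the anticodon UGC went the same 2 ways. The one on NW_018084804.1 at 209905-209976 had 251, 93.7, 145 and 102, and the one at chr2:57308335-57308406 had 104, 115, 99.9 and 71.8. The lysine tRNA TRNAK-UUU at chr2:11923633-11923705 had 204, 142, 108 and 114. Of the 15, 9 varied by less than 2-fold over the 4 libraries and 6 by 2-fold or more, 8 were highest at D0 and 7 at D2.

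**Figure D2:**
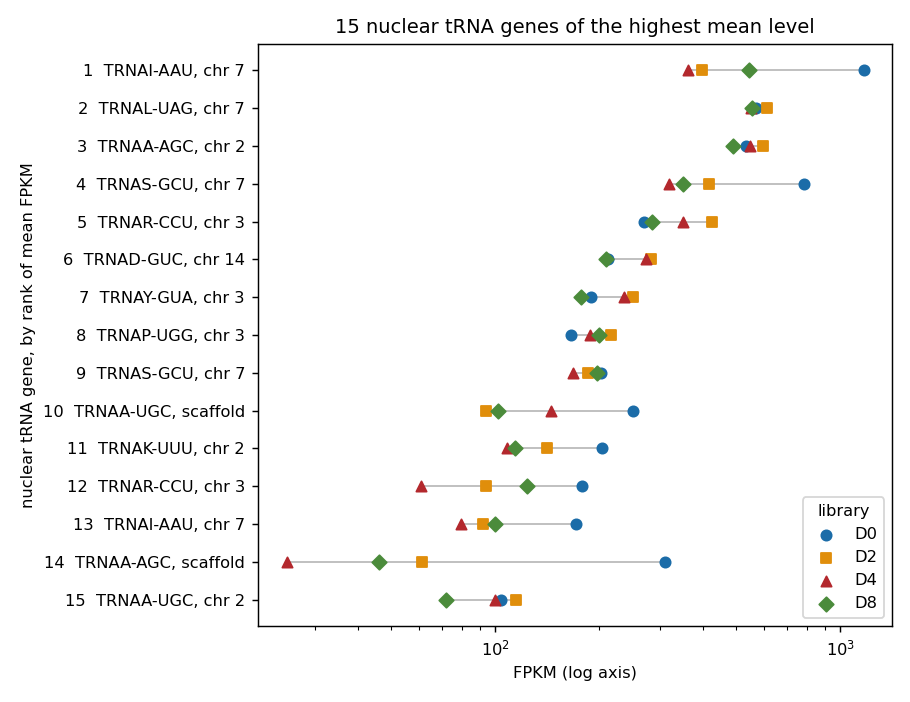
FPKM (x axis, log scale) of the 15 nuclear tRNA genes of the highest mean level (y axis, by rank) in the D0, D2, D4 and D8 libraries, 1 point per library joined by a line over the range. Genes 1, 4, 10, 12, 13 and 14 spread widely with D0 at the right, up to 12.5-fold for gene 14, and the other 9 spread by less than 2-fold.

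Lower levels after D0 were more frequent in some stretches of the genome. Nuclear tRNA genes lie in groups, and 8 groups of at least 10 genes with gaps of at most 250 kb held 200 of the 339 genes. This grouping was chosen after the values were seen. Among the 122 reliably expressed genes of the groups, 61, 56 and 59 were at least 2-fold lower than D0 in the 3 later libraries (50.0%, 45.9% and 48.4%). Among the 73 outside the groups, the numbers were 5, 7 and 12 (6.85%, 9.59% and 16.4%), beside 10.7%, 9.57% and 4.82% of all features. The medians were -1.03, -0.94 and -0.97 in the groups and 0.15, -0.17 and -0.25 outside. Summed reads of the 200 genes gave log2 ratios of -0.78, -0.98 and -0.81, and those of the 139 genes outside gave 0.10 (0.0670 to 0.142), -0.04 (-0.07 to -0.00344) and -0.27 (-0.31 to -0.23). The ratio to D0 was thus lower in the grouped genes at each stage, by sum and by median. At D2, the genes outside the groups were not below D0 by either measure.

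The largest group lay at chr7:20912465-21639988, where 89 tRNA genes of 32 anticodons are spread over 728 kb. It held 15596 reads (D0), 4924 (D2), 6051 (D4) and 5953 (D8), or 31.0%, 18.9%, 19.5% and 25.8% of the nuclear tRNA reads. The summed log2 ratios to D0 were -1.21, -1.35 and -0.91. Of its 56 reliably expressed tRNA genes, 28, 26 and 26 were at least 2-fold lower than D0 at D2, D4 and D8 and 5, 3 and 3 higher. Over all features, 10.7%, 9.57% and 4.82% were lower and 7.06%, 10.7% and 3.87% higher. The 22 reliably expressed protein-coding genes of the same stretch went another way. Of these, 14 were at least 2-fold lower at D2 than at D0, beside 10.7% of all features. But 16 were at least 2-fold higher at D4 than at D2, beside 4.53%. Their medians against D0 were -1.68, 0.16 and 0.25. The tRNA genes had medians of -1.05, -0.94 and -0.92 there. At D2 both kinds were low, and from D4 on only the protein-coding genes were back at their D0 level by the median.

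The other groups ranged from nearly level to much lower. On scaffold NW_018085214.1, 11 genes within 53.2 kb had 897, 137, 104 and 128 reads in all, with all 6 reliably expressed genes at least 2-fold lower than D0 in each later library. The summed reads there were 4.78-fold, 8.51-fold and 5.03-fold lower. On scaffold NW_018084804.1, 33 genes of 13 anticodons had 4818, 1412, 1900 and 1169 reads, which is 2.49-fold, 2.50-fold and 2.96-fold lower than D0 after scaling. The 10 genes at chr7:22072896-22436850 were 1.94-fold, 2.43-fold and 2.23-fold lower, the 11 at chr4:99278570-99318518 2.56-fold, 2.04-fold and 2.24-fold, and the 15 at chr12:53332455-53427685 1.91-fold, 1.73-fold and 2.01-fold. In contrast, the 15 genes at chr7:78263024-78326893 and the 16 at chr3:39028215-39066592 had summed log2 ratios of -0.05, -0.24 and -0.17 and of 0.04, -0.30 and -0.23. Those 2 groups hold the TRNAL-UAG gene second in rank, with 3531 of the 4462 reads of its group at D0, and the larger TRNAR-CCU gene, with 1481 of 5145. By their medians over genes, they stood at -0.72, -0.94 and -1.07 and at -0.05, -0.77 and -0.44, further below D0 than the sums, and for the chr3 group at D2 the sum and the median differ in sign. They also did at D8 for the chr4 group, whose median was 0.36.

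**Figure D3:**
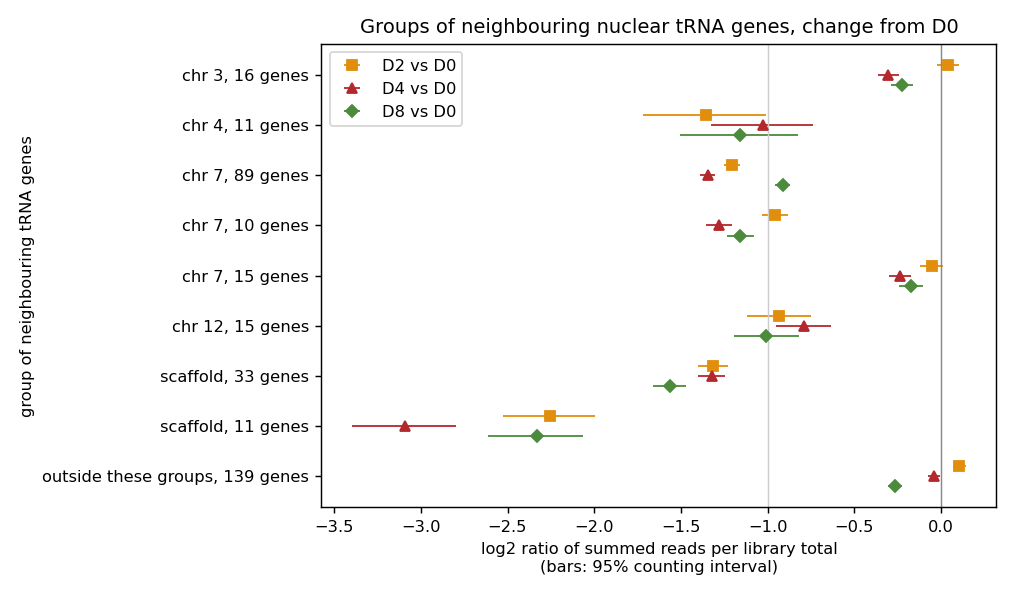
Log2 ratio to D0 of reads summed over each of 8 groups of neighbouring nuclear tRNA genes and over the 139 genes outside them (x axis, scaled by library total, bars are 95% counting intervals), for D2, D4 and D8. The 6 lower groups lie at -0.79 or below at every stage, and the other 2 groups and the genes outside lie between -0.30 and 0.10.

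The groups were also compared within an anticodon. This used the same reads and the same grouping as above, so it is no independent support for the split. For 23 anticodons, genes in the groups and genes outside each had at least 20 reads at D0, the library that every ratio shares. Reads may also be split among copies of 1 anticodon. At D2, the summed reads of the grouped copies had the lower ratio to D0 for 20 of 23 anticodons, and the medians were -1.19 in the groups and 0.07 outside. At D4 it was 20 of 22 (-1.48 and -0.12; the grouped TRNAT-CGU genes had no read at D4), and at D8 20 of 23 (-1.10 and -0.31). For the glutamate tRNA TRNAE-UUC, 4 grouped genes had 294, 26, 20 and 20 reads in all, and 15 genes outside had 198, 239, 299 and 187. For TRNAY-GUA, 8 grouped genes had 1264, 314, 427 and 514 reads and 5 outside had 1107, 1033, 1314 and 740. For the histidine tRNA TRNAH-GUG, the numbers were 239, 41, 27 and 55 in groups and 575, 471, 549 and 328 outside. The lysine tRNA TRNAK-UUU was an exception at each stage (0.17, -0.13 and -0.62 in groups, -0.51, -0.83 and -0.87 outside).

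Summed over all copies, the anticodon families still differed. Of 45 anticodons, 39 had at least 100 reads at D0. This filter uses the D0 library, to which the ratios are taken, and so favours families that are high there. Without it, 30, 37 and 40 anticodons were below D0 at D2, D4 and D8 and 15, 8 and 4 above, with a D8 ratio for 44 of the 45. At D4, 34 of the 39 had a ratio to D0 below 1, 12 of them at least 2-fold, and the counting interval lay below 0 for 31 and above 0 for 4. At D2, 29 were below D0, 8 of them at least 2-fold. At D8, 37 were below D0, 7 at least 2-fold, and 1 interval lay above 0. The lowest at D4 was TRNAL-AAG, a leucine tRNA, with 272, 121, 69 and 100 reads (log2 ratios to D0 of -0.71, -1.96 and -0.97). The serine family with anticodon CGA, TRNAS-CGA, followed with 594, 99, 194 and 162 reads (-2.13, -1.59 and -1.40). Serine tRNAs with AGA (-1.69, -1.39 and -0.91) and UGA (-1.47, -1.32 and -1.45) were lower as well, as were TRNAI-UAU (-1.26, -1.19 and -1.15) and the asparagine tRNA TRNAN-GUU (-1.04, -1.21 and -0.83). TRNAI-AAU, the family of the most abundant gene, had -1.36, -1.52 and -1.003.

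At the other end of the 39 families with at least 100 reads at D0, the glycine tRNA TRNAG-UCC had 222, 225, 401 and 159 reads. Its log2 ratios were 0.47, 0.87 and -0.00359. Glycine was also the only amino acid besides aspartate whose summed reads were above D0 at D4 (0.48 and 0.37), while the other 18 of 20 were below. At D8, the sums ran from -1.01 for isoleucine to -0.02 for aspartate, and the counting interval lay below 0 for 19 of the 20 amino acids. TRNAP-UGG was above D0 at every stage (0.37, 0.17 and 0.19), and the other proline families were not alike. TRNAP-CGG was lower (-1.14, -1.47 and -0.94), with 89.6% of its D0 reads on 1 gene. TRNAL-UAG and TRNAD-GUC, near D0 at D8, also rested on 1 gene, with 98.9% and 82.7% of their D0 reads.

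**Figure D4:**
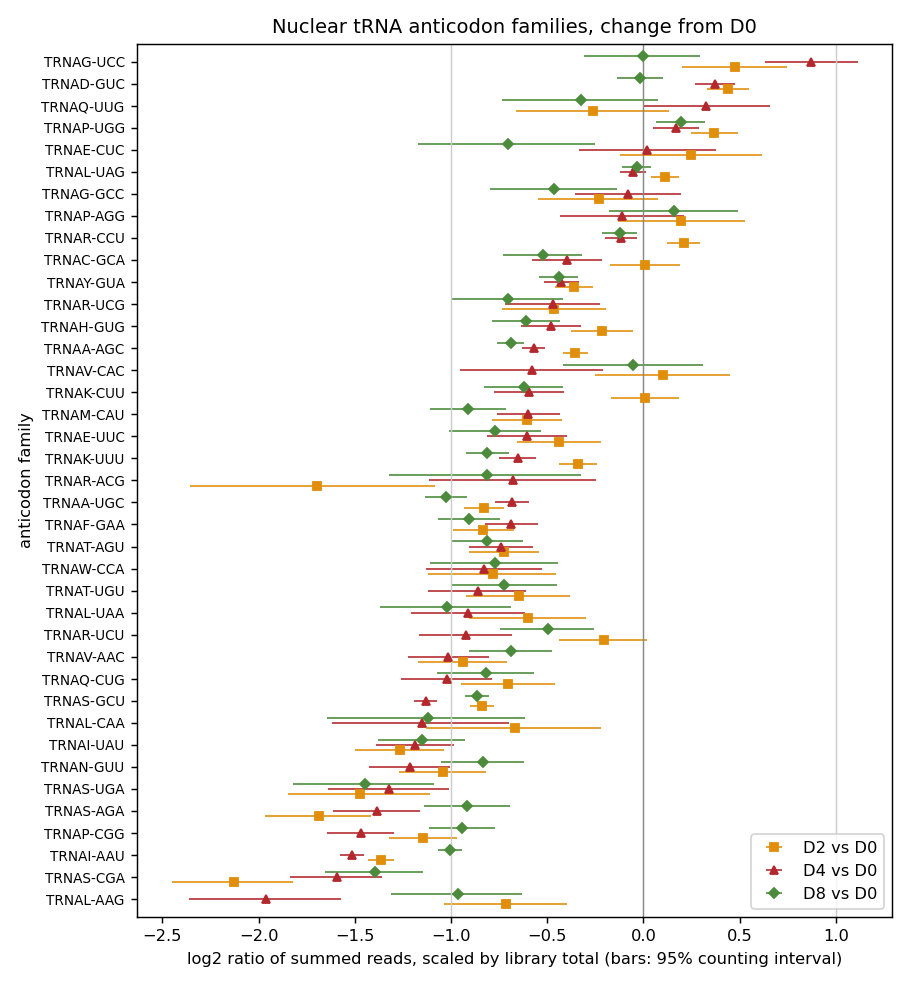
Log2 ratio to D0 of reads summed over each of the 39 anticodon families with at least 100 reads at D0 (x axis, scaled by library total; bars are 95% counting intervals), ordered by the D4 ratio. TRNAL-AAG (-1.96 at D4) and TRNAS-CGA (-2.13 at D2) lie lowest and TRNAG-UCC (0.87 at D4) highest.

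Some tRNA genes hold a short intron next to the anticodon, which the splicing endonuclease cuts out. The counted length, computed from the step of the FPKM values, was shorter than the genomic span for 27 of the 339 genes, by 12 to 25 bases. They were all 13 TRNAY-GUA, all 6 TRNAL-CAA, all 4 TRNAI-UAU and 4 of 5 TRNAR-UCU genes, whose families are known to carry introns. The counted lengths were 73 bases for TRNAY-GUA and TRNAR-UCU, 84 for TRNAL-CAA and 74 for TRNAI-UAU. The 19 reliably expressed ones had medians of -1.19, -0.74 and -0.76 against D0, and the 176 with no intron had -0.36, -0.56 and -0.62. At least 2-fold lower were 11, 7 and 9 of the 19 and 55, 56 and 62 of the 176. Over all features it was 10.7%, 9.57% and 4.82%. Since reads within introns were not counted, unspliced precursors cannot be told from spliced tRNA.

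Most tRNA genes, 289 of 339, lay outside every other feature, and these took 94.5% of the tRNA reads at D0 and 92.4% to 93.7% later. A further 29 lay within a feature on the same strand and 21 within one on the opposite strand. Whether the counting used strand was not stated. Reads of the 29 could come from the surrounding transcript, and in 13 of them that transcript had the higher FPKM. The 15 reliably expressed of the 29 had medians against D0 of -0.31, -0.07 and -0.17. The 167 reliably expressed genes outside other features had -0.43, -0.66 and -0.62. Most of the 13 genes whose surrounding transcript was higher were not reliably expressed and do not enter these medians. Of the 21, 13 were reliably expressed, and 3, 3 and 7 of these were at least 2-fold lower than D0. Over all features it was 10.7%, 9.57% and 4.82%.

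At the extremes of the ratio to D0, reads were few. Of the 180 genes with at least 20 reads in 1 library, the 6 lowest by the mean of the 3 ratios had 22 to 36 reads at D0 and 0 to 14 reads in each later library. Each of the 6 thus met the bound of 20 reads only through D0, so the choice favours genes that are high there. TRNAS-CGA at chr7:21544410-21544491 had 30 (D0), 0 (D2), 0 (D4) and 4 (D8) reads, and TRNAE-UUC on NW_018085214.1 at 4632-4703 had 28, 0, 1 and 1. TRNAE-UUC at chr4:99300115-99300186 had 22, 2, 0 and 1 reads. The threonine tRNA genes TRNAT-CGU at chr7:22250283-22250356 and TRNAT-AGU at chr7:21298491-21298564 had 36, 12, 0 and 1 and 22, 4, 6 and 0. TRNAL-CAA at chr7:21516539-21516644 had 34, 14, 0 and 1. None of the 6 was reliably expressed. All 6 lay in the groups described above, which hold 200 of the 339 genes. The 6 were chosen by the same ratios to D0, so this is no separate support for the split.

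The 6 highest were led by fewer reads still. TRNAI-AAU at chr12:53427612-53427685 had 3, 13, 27 and 1 reads, and TRNAE-UUC at chr6:68631910-68631981 had 4, 3, 30 and 7. The latter lies within PARK7 on the same strand, a gene of oxidative stress defence with an FPKM of 290.2 to 376 against 0.737 to 5.60 for the tRNA. TRNAS-AGA at chr4:41373206-41373287 had 6, 8, 21 and 12 reads, TRNAV-AAC (valine) at chr7:21547984-21548056 8, 14, 22 and 12, and TRNAI-UAU at chr6:48069095-48069187 14, 15, 32 and 18. Only TRNAT-AGU at chr6:42969732-42969805 stood on more, with 76, 110, 144 and 84 reads and an FPKM of 13.6, 27.0, 26.2 and 21.0. Its log2 ratios to D0 were 0.99, 0.94 and 0.62, so it did not reach 2-fold. By FPKM, all 6 were lowest at D0 except the chr12 gene, which was lowest at D8. The chr12 gene and the TRNAE-UUC gene were not reliably expressed. The chr12 gene and the TRNAV-AAC gene lay in the groups described above, and the others lay outside them.

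Mitochondrial tRNA genes took the opposite course. The 17 genes held 6043 reads (D0), 7100 (D2), 14099 (D4) and 6067 (D8), or 0.00802%, 0.0129%, 0.0190% and 0.0112% of the fragments. The summed log2 ratios were 0.69 from D0 to D2 (0.64 to 0.74), 0.55 from D2 to D4 (0.51 to 0.60) and -0.76 from D4 to D8 (-0.80 to -0.71). Against D0, D4 stood at 1.24 (1.20 to 1.29) and D8 at 0.48 (0.43 to 0.54). For each read on nuclear tRNA genes there were 0.120 mitochondrial ones (D0), 0.273 (D2), 0.453 (D4) and 0.263 (D8).

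The pattern was shared by nearly all of them. Of 16 reliably expressed genes, 15 were highest at D4 and 13 lowest at D0, and 14 were ordered D0 below D2 below D4. At D4, 14 of 16 were at least 2-fold higher than at D0 and none was lower, with a median of 1.27, beside 10.7% of all features higher. The counts in the other comparisons were 2 higher at D2 than D0 (median 0.72, beside 7.06% of all features higher), 1 higher at D4 than D2 (0.64, beside 4.53%), 3 lower at D8 than D4 (-0.84, beside 10.4% lower) and 1 higher at D8 than D0 (0.55, beside 3.87%), with none in the other direction. With 16 genes, a count of 1 is close to those shares. All 16 were lower at D8 than at D4, and 13 were higher at D8 than at D0.

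The annotation table pairs no amino acid with these genes, so they are named by the files' identifiers, position and neighbours. The highest on the plus strand was rna78617 at chrMT:11000-11068, between ND3 and ND4L, subunits of respiratory complex I. Its FPKM was 151, 227, 329 and 216. Next to it in level, rna78614 at chrMT:8135-8202 before COX2 had 137, 205, 315 and 211, and rna78616 at chrMT:10584-10652 between COX3 and ND3 had 114, 167, 258 and 178. On the minus strand, rna78606 at chrMT:4943-5015 had 128, 259.8, 351 and 191, and rna78613 at chrMT:8059-8129 after COX1 had 114, 179, 325 and 172. Each was lowest at D0 and highest at D4. The plus strand as a whole (11 genes) had medians of 1.26 at D4 and 0.53 at D8 against D0, and the 5 reliably expressed genes of the minus strand had 1.45 and 0.57.

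Other genes had lower levels and were also ordered D0 below D2 below D4, with D8 below D4. It comprised rna78604 (69.3, 90.7, 153 and 68.5), which follows the larger rRNA, rna78605 (65.0, 87.2, 156 and 93.7), rna78607 (73.1, 130.2, 177 and 95.3), rna78621 next to ND6 (107, 173, 214 and 149), rna78622 after CYTB (32.6, 54.3, 96.7 and 54.3), rna78620 (33.2, 55.9, 83.8 and 41.2) and rna78618 (26.9, 48.8, 77.2 and 42.8). In rna78604, D8 was at the D0 level (log2 ratio -0.02). The lowest were rna78615 between COX2 and ATP8 (9.70, 18.5, 40.9 and 17.6), rna78600 (7.20, 5.98, 10.8 and 5.81) and rna78612 before COX1 (0.804, 4.41, 7.54 and 5.04, from 4, 16, 37 and 18 reads). A single read, at D4, fell on rna78609. Of the 16, rna78600 and rna78623 were not ordered D0 below D2 below D4. The latter, at chrMT:16550-16613 on the minus strand, had 82.1, 149, 123 and 69.3, highest at D2. At D0, the FPKM of the 16 reliably expressed genes ran from 0.804 to 151.

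The 2 mitochondrial rRNA genes, which rRNA depletion also targets, moved further. Their summed reads were 3.03-fold higher at D2 than at D0, 2.95-fold higher at D4 than at D2, and 8.94-fold higher at D4 than at D0, but only 1.26-fold higher at D8. The tRNA genes were 1.61-fold, 1.47-fold, 2.37-fold and 1.40-fold higher in the same comparisons. The first tRNA gene, rna78600, directly before the smaller rRNA, was 1.49-fold higher at D4 than at D0, while that rRNA, rna78601, was 10.1-fold higher (FPKM of 64.3, 202, 650.4 and 73.0). Neighbours on 1 transcript thus differed in ratio. The part of the depletion in this difference was not tested.

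Genes that make and use tRNAs were looked at by 7 lists. RNA polymerase III and its factors (30 of 30 reliably expressed) hardly moved by their medians, which were -0.04, 0.13 and -0.13 against D0 at D2, D4 and D8. At D2, 0 of 30 were 2-fold apart, beside 17.8% of all features. POLR3G, a subunit with a paralog, POLR3GL, was the 1 member at least 2-fold lower at D8, with an FPKM of 2.95, 1.54, 1.55 and 1.44. CRCP, another subunit, was 2-fold higher at D4 (10.4, 20.5, 21.1 and 11.9). The subunit POLR3A (1.90, 3.28, 3.80 and 1.72) stood just under the 2-fold bound there, with a log2 ratio of 0.998. For D8 and D4 against D0, 4.82% of all features were lower and 10.7% higher. From D4 to D8, POLR3A and GTF3C2 were 2.21-fold and 2.14-fold lower, 2 of 30 beside 10.4% of all features. Of 25 reliably expressed genes for nuclear tRNA processing, splicing and export, none was 2-fold apart in any of the 5 comparisons (medians 0.07, -0.08 and -0.12 against D0).

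Among 41 genes for tRNA modification in nucleus and cytosol, 0, 4 and 0 were at least 2-fold higher than D0 at D2, D4 and D8 and 1, 2 and 0 lower (medians 0.04, 0.15 and -0.18). The 4 and 2 at D4 are read against 10.7% of all features higher and 9.57% lower, so the list did not stand out by its counts. Higher at D4 were the acetyltransferase NAT10 (FPKM of 3.61, 6.97, 9.75 and 3.36), LCMT2 of the wybutosine pathway (1.31, 2.43, 3.44 and 1.33), the queuine transferase subunit QTRT2 (5.83, 10.7, 11.9 and 8.08) and the uridine methyltransferase TRMT2A (5.09, 8.83, 10.3 and 4.99). Lower were WDR4 of the 7-methylguanosine enzyme (3.14, 1.003, 1.22 and 2.07) and ELP6 of the Elongator complex (8.89, 4.59, 4.08 and 5.58). Each was closer to D0 at D8 than at D4.

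Synthetases attach the amino acids. Of 23 reliably expressed genes for cytosolic aminoacyl-tRNA synthetases and their scaffold proteins, 20, 18 and 21 were below D0 at D2, D4 and D8, with medians of -0.52, -0.67 and -0.32. Of all 9929 reliably expressed features, 5155, 4641 and 6755 were below D0, with medians of -0.03, 0.05 and -0.18. At D4, 6 of 23 were at least 2-fold lower and 0 higher, beside 9.57% and 10.7% of all features. They were SARS for serine (FPKM of 423, 225, 146 and 329.5), GARS for glycine (198, 105, 64.6 and 119.5), AARS for alanine (209, 136, 92.0 and 171), WARS for tryptophan (85.0, 48.4, 33.6 and 76.1), TARS for threonine (48.0, 27.2, 22.9 and 39.5) and CARS for cysteine (20.8, 9.48, 7.61 and 16.6). All 6 were lowest at D4 and higher again at D8.

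Of 17 mitochondrial synthetase genes, none was at least 2-fold lower than D0 at any stage, beside 10.7%, 9.57% and 4.82% of all features. The medians were 0.14, 0.18 and -0.17, beside -0.03, 0.05 and -0.18. VARS2, for valine, was the 1 member 2-fold higher at D4 (1.29, 2.59, 4.19 and 1.34), beside 10.7% of all features. Among 35 genes for mitochondrial transcription and tRNA processing, 23, 26 and 17 were above D0, with medians of 0.14, 0.31 and -0.01. Of all 9929 features, 4774, 5288 and 3174 were above D0. FASTKD5, needed for the ends of mitochondrial mRNAs that no tRNA flanks, was the 1 member at least 2-fold higher (2.10, 4.40, 5.83 and 2.26). This was at D2 and D4, beside 7.06% and 10.7% of all features.

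Of the 4 reliably expressed genes of tRNA cleavage, the ribonucleases ANG (4.54, 12.7, 12.8 and 6.14) and RNASE4 (31.5, 87.6, 87.1 and 49.3) were at least 2-fold higher than D0 at D2 and D4. RNH1, the inhibitor of these ribonucleases, was 2-fold lower at D4 (75.2, 39.4, 37.0 and 66.1). SLFN11, of a family that cuts type II tRNAs such as those for serine and leucine, had 2.86, 1.06, 1.95 and 3.63 and was at least 2-fold lower at D2. Over all features, 7.06% and 10.7% were higher at D2 and D4, and 10.7% and 9.57% were lower. ANG lies at chr7:78249479-78262846, next to the group of 15 tRNA genes with TRNAL-UAG. Fragments of tRNA cut by these enzymes cannot be told from whole tRNA in these counts.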

How the data were processed

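RNA-Seq of rRNA-depleted total RNA (Ribo-Zero, directional NEB kit) gave 1 pooled library per stage. The authors aligned clean reads to Sus scrofa 11.1 with HISAT2 2.0.5 and deposited FPKM values for 22944 features; 8623 circRNA values in another unit (SRPBM) were not used. The counting tool, its use of strand and its handling of multiply mapped reads are not given in the sources used here.

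Here, FPKM times length was a whole multiple of 1 step per library (tolerance 0.01), which gave the library totals and whole reads. Where the span of a gene did not give whole reads, a shorter counted length of at least 60 bases was searched. The step and lengths were tested on simulated data. Ratios used log2(FPKM + 0.01) and features with FPKM of at least 1 in at least 3 libraries. With 1 library per stage, no test was run. Names and positions come from the files, and 339 of 339 genes matched RefSeq (Sscrofa11.1) by symbol, start and end. Named genes are all mitochondrial ones, the 15 nuclear ones of the highest mean FPKM, the 6 highest and 6 lowest by mean log2 ratio to D0 among those with at least 20 reads in 1 library, and list members at least 2-fold from D0. The members and the 7 lists were chosen with earlier results of these data known. Alternatives were other pseudocounts, filters, scalings and sets of genes. Python 3.11.15, numpy 2.4.6, pandas 2.3.3, scipy 1.17.1 and matplotlib 3.10.9 were used. Intervals (exact for ratios, Wilson for shares) cover counting error only, since no molecular identifiers are described.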

Additional observations from a re-analysis of the deposited data

How the results depend on the processing

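No paired analysis was possible because each stage is 1 library, and leaving out a library leaves no value for its stage. Scaling by the mitochondrial protein-coding genes was not run, since no such feature is among those analysed. With no filter, 190 (54 higher, 136 lower), 152 (74, 78), 143 (73, 70), 181 (54, 127) and 190 (53, 137) of 339 nuclear genes were 2-fold apart in D2 over D0, D4 over D2, D8 over D4, D4 over D0 and D8 over D0, against 80, 53, 47, 77 and 80 of 195, because genes with few reads enter. The medians for D4 over D2 and D8 over D4 were then 0, and 2 mitochondrial genes were 2-fold apart in D4 over D2. A pseudocount of 1 gave 33 (11, 22) for D4 over D2 and 29 (18, 11) for D8 over D4. At least 20 reads in place of the filter gave 30 (13, 17) of 140 and 23 (11, 12) of 135, and 1 mitochondrial gene for D2 over D0 and 0 for D8 over D0. Scaling by the median ratio of protein-coding genes shifts D8 by -0.21 against D4 (size factors of -0.11 and 0.10, log2). The nuclear median was then 0.23 for D8 over D4 and -0.47 for D8 over D0, the mitochondrial median 0.71 for D8 over D0, and mitochondrial counts 1 (D8 over D4) and 2 (D8 over D0). Relative to protein-coding genes, nuclear tRNA genes were thus higher at D8 than at D4. Of the reads outside the most abundant feature, a signal recognition particle RNA, nuclear tRNA genes took 0.0763%, 0.0571%, 0.0478% and 0.0511% and mitochondrial ones 0.00915%, 0.0156%, 0.0217% and 0.0134%. A pseudocount of 0.1, summed FPKM and leaving out genes within other features gave values close to those in the report.

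Alternatives chosen after seeing the data were as follows. Without the largest group, 47 (9, 38), 31 (14, 17), 48 (11, 37) and 51 (6, 45) of 139 genes were 2-fold apart in D2 over D0, D8 over D4, D4 over D0 and D8 over D0, fewer because fewer genes enter (33.8%, 22.3%, 34.5% and 36.7%), and the median for D8 over D4 was -0.056. With gaps of at most 100 kb, 10 of 79 genes outside the groups were at least 2-fold lower at D2 than at D0 (5 of 73 in the report), and with groups of at least 5 genes 3 of 48. Without the largest group, 33, 30 and 33 of 66 grouped genes were lower at D2, D4 and D8. Without the most abundant tRNA gene, the nuclear shares of reads were 0.0581%, 0.0444%, 0.0392% and 0.0386%, by which the D4 and D8 shares change order.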
